A study of Mus musculus with 16 samples.

Results

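The effector genes of cytotoxic lymphocytes were followed in bulk RNA from the epidermis of aged mice given control IgG or antibodies against IL-17A and IL-17F. The set holds 10 genes, chosen by name: the granule genes Prf1, Gzma, Gzmb, Gzmc, Nkg7 and Ctsw, the killer receptor genes Klrd1 and Klrk1, and the effector molecules Fasl and Ifng. All 10 are among the 27179 genes of the deposited table. The mice were C57BL/6J, 73 weeks old when treatment began, and received 3 intraperitoneal injections a week for 12 weeks, either control IgG (IgG1 isotype) or a mixture of anti-IL-17A and anti-IL-17F (anti-IL-17A/F). There were 4 mice per group, all aged, with no young mice and no untreated mice in the comparison. Epidermal cells were profiled without sorting out lymphocytes, so a transcript of these genes is read against a large excess of keratinocyte RNA.

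Cytotoxic T cells and natural killer (NK) cells kill by releasing granules in which perforin opens the membrane of the target and granzymes, a family of serine proteases, enter and trigger its death. A separate route uses Fas ligand on the cell surface, and interferon-γ acts at a distance on antigen presentation and inflammation. In mouse epidermis the resident lymphocytes are mainly dendritic epidermal T cells, γδ T cells that lie between keratinocytes and use the receptor NKG2D, with CD8+ resident memory T cells as a further population that can settle there.

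Each library had been sequenced in 2 batches, and the runs of a mouse were summed. The totals were 42816157 to 53721153 counts per mouse, with 19427 to 19727 genes detected. Levels are CPM, counts per 1000000 of a total scaled by the TMM method, which makes the libraries comparable. Keratinocyte markers dominated as the label says, with a summed level of 33852 to 37098 CPM in the controls and 34029 to 36477 CPM in the treated mice for 8 of 8 markers. Lymphocyte transcripts were mainly those of T cells. The 4 CD3 genes summed to 78.4 to 117 CPM in the controls and 75.8 to 105 CPM in the treated mice, and Trdc, the constant region of the δ chain, was at 46.3 ± 9.99 and 39.35 ± 8.47 CPM (SD, n = 4 each). Of the 6 listed NK cell markers, 4 were near 0, with 5 counts of Ncr1 in the whole control group and 6 in the whole treated group, 11 and 6 counts of Eomes, 0 and 1 count of Klra4, and 30 and 33 counts of Klra8. The other 2 were measured, Klrb1c at 0.970 and 0.864 CPM and Itga2, an integrin gene that keratinocytes also express, at 36.0 ± 4.11 and 36.0 ± 2.38 CPM. Cd8a was at 3.22 ± 1.96 and 1.81 ± 1.40 CPM.

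None of the effector genes passed the test between the treatments, although every gene that could be tested had a lower mean under anti-IL-17A/F. Of the 10 genes, 8 passed the filter on low counts, and Gzma and Gzmb did not. In edgeR's quasi-likelihood test 0 of 8 reached an adjusted p (Benjamini-Hochberg) below 0.1 over all 16335 genes tested, where the share called over all genes was 0% (0 genes), and the adjusted p was 0.984 for each. At an unadjusted p below 0.05 there were also 0 of 8, where 1.57% of all genes tested had lower values at that level. In 0 of 8 did the groups fail to overlap, against 1.00% of all genes with every anti-IL-17A/F mouse below every control mouse. The log2 fold changes of the 8 genes were -0.81 to -0.19 with a median of -0.28, beside a median of 8.7e-05 over all genes tested, of which 49.9% were lower. DESeq2 called 0 of the 6 members to which it gave an adjusted p, against 0.083% of its tested genes, with 1 of 10 members lower at an unadjusted p below 0.05 beside 1.45% of all genes. The limma-voom fit with sample weights also called 0, with 3 of 8 members lower at that level beside 3.25% of all genes. Most members varied together over the mice, so these are not counts of independent genes. In bulk RNA, fewer cells of a type and less RNA per cell cannot be told apart.

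**Figure D1:**
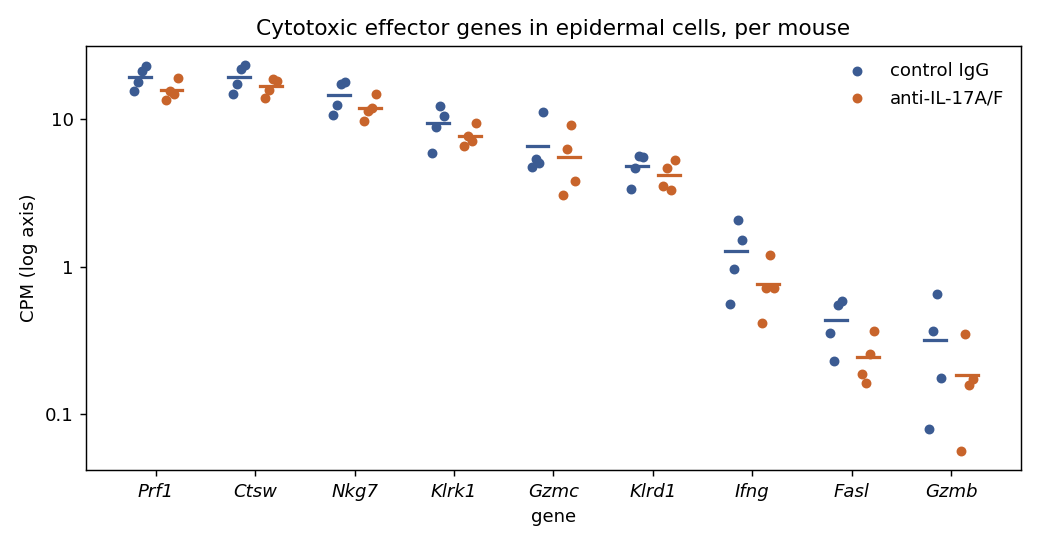
CPM on a log axis for 9 of the 10 genes, ordered by control level, with a point for each of the 4 control IgG mice (blue) and 4 anti-IL-17A/F mice (orange) and a line at the group mean; Gzma, with 3 counts in all, is left out. The points of the groups overlap in every gene, and the highest control mouse lies above the highest anti-IL-17A/F mouse in each.

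Prf1, the gene of the pore-forming protein perforin, had the smallest p of the set. It was at 15.5, 17.8, 21.1 and 22.9 CPM in control mice 1 to 4 and at 13.4, 15.5, 14.6 and 18.8 CPM in treated mice 1 to 4, those given anti-IL-17A/F. Control mice 3 and 4 were the highest, and 3 of the 4 treated mice lay below every control mouse (treated mouse 2 by a margin lost in the rounding), while treated mouse 4 lay among the controls. The log2 fold change was -0.31 (SE 0.14, 95% interval -0.63 to 0.0068), and 716 genes of the table had a smaller p in edgeR. The value moved to -0.22 when control mouse 4 was left out and to -0.42 when treated mouse 4 was.

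The other granule genes apart from the granzymes had the same order of mice at their upper end. Nkg7, a granule membrane protein needed for full granule release in mice, was at 10.6, 12.4, 17.3 and 17.7 CPM in the control mice and at 9.75, 11.4, 11.8 and 14.7 CPM in the treated mice. Ctsw, the lysosomal protease cathepsin W of T and NK cells, was at 14.8, 17.3, 21.9 and 23.1 CPM in control and 13.8, 15.7, 18.7 and 18.1 CPM in treated mice. In both genes control mice 3 and 4 stood above all treated mice, and control mice 1 and 2 lay within the treated range. The log2 fold change was -0.28 for Nkg7 (SE 0.19, 95% interval -0.70 to 0.14) and -0.22 for Ctsw (SE 0.15, 95% interval -0.56 to 0.13). Leaving out single mice gave -0.40 to -0.17 for Nkg7 and -0.32 to -0.12 for Ctsw. The lowest value of each came without control mouse 1 and the highest without control mouse 4.

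Of the 3 granzymes of the set, Gzmc was abundant enough to test. Granzyme C lies in the granzyme cluster of chromosome 14 with Gzmb and, in mice, a run of related genes. Gzmc was at 4.71, 5.32, 5.02 and 11.2 CPM in control mice 1 to 4 and at 3.07, 6.25, 9.05 and 3.79 CPM in the treated mice. Control mouse 4 stood apart from the other control mice, with 573 counts against 238 to 276, and treated mouse 3 was the second highest of all. The log2 fold change was -0.25 (SE 0.39, 95% interval -1.12 to 0.63). It turned to 0.14 without control mouse 4 and was -0.59 without treated mouse 3, so its direction rested on that control mouse.

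Part of the Gzmc transcript is shared with its neighbours, since 4.14% of its 50-base windows also occur in Gzmd, Gzme or Gzmg. The stretch shared with Gzme, 68 bases long, is the longest. The longest stretch shared with Gzmb, the other measured granzyme of this cluster, has 49 bases and falls short of the 50-base window. The reads had 50 bases, so a read can fit inside the former and not inside the latter, and both are shown for that contrast (from GENCODE transcripts of GRCm38, within Gzmc at chr14:56231397-56241647, minus strand).
Gzmc and Gzme: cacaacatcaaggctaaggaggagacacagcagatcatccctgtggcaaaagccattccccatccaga
Gzmc and Gzmb: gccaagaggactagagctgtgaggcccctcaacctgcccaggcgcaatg
The neighbours gave few counts of their own. Gzme, Gzmg and Gzmn were at 0 in all 8 mice, Gzmd had 0 counts in all controls and 1 in all treated mice, and Gzmf had 2 and 0. Reads that map to several places were not counted by the authors, so reads that fit inside a shared stretch are missing from the genes that share it.

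Gzmb and Gzma, the granzymes most used to mark killing lymphocytes, were rare. Gzmb had 4, 19, 34 and 9 counts in control mice 1 to 4 and 3, 15, 8 and 9 counts in the treated mice. Control mouse 3 gave 34 of the 66 control counts, and the groups overlapped. The ratio of treated to control counts per total was 0.560 (95% exact Poisson interval 0.361 to 0.856), and 0.864 without control mouse 3. That interval covers counting error only, and edgeR with no filter gave an adjusted p of 0.914. Gzma had 0, 1, 1 and 0 counts in control and 1, 0, 0 and 0 counts in treated mice, a ratio of 0.528 (0.00895 to 10.1), so no difference was detectable at this depth. Gzmm, a granzyme of NK and innate-like T cells, had 1.03 ± 0.0495 CPM in control and 1.202 ± 0.222 CPM in treated mice (SD, n = 4 each), a log2 fold change of 0.21 (SE 0.17).

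Klrk1 encodes NKG2D, the activating receptor for stress ligands, and Klrd1 encodes CD94, the partner of the NKG2 receptors that bind the nonclassical class I molecule Qa-1 in mice. Klrk1 was at 5.84, 8.86, 12.3 and 10.5 CPM in control and at 6.58, 7.65, 7.10 and 9.37 CPM in treated mice. Control mouse 1 was the lowest of the 8, and control mice 3 and 4 were the highest. Klrd1 was at 3.35, 4.62, 5.64 and 5.53 CPM in control and at 3.53, 4.65, 3.28 and 5.30 CPM in treated mice, with treated mouse 4 close to the upper controls. The log2 fold change was -0.29 for Klrk1 (SE 0.21, 95% interval -0.77 to 0.20) and -0.19 for Klrd1 (SE 0.21, 95% interval -0.67 to 0.28). Klrk1 was at -0.13 without control mouse 3 and -0.45 without control mouse 1, and Klrd1 at -0.089 without treated mouse 3 and -0.33 without treated mouse 4.

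Fasl and Ifng had the lowest log2 fold changes and the fewest counts of the tested genes. Fasl, the ligand of the death receptor Fas, was at 0.357, 0.231, 0.554 and 0.586 CPM in control and at 0.189, 0.163, 0.255 and 0.368 CPM in treated mice. It rested on 89 control and 49 treated counts, and control mice 1 and 2 lay among the treated mice. Single mice had 12 to 30 counts in control and 7 to 19 in treated mice. Fasl thus passed the filter (minimum count 10) mainly through the control mice, where it was higher. Its log2 fold change was -0.81 (SE 0.37, 95% interval -1.65 to 0.026), with -1.08 when treated mouse 4 was left out and -0.63 when control mouse 4 was. Ifng, the gene of interferon-γ, was at 0.555, 0.963, 2.06 and 1.51 CPM in control and at 0.415, 0.721, 1.197 and 0.716 CPM in treated mice. Control mouse 1 was the second lowest of the 8, so the groups overlapped widely. The log2 fold change was -0.74 (SE 0.43, 95% interval -1.71 to 0.23), with -0.40 when control mouse 3 was left out and -1.04 when treated mouse 3 was. Of the exonic sequence of Ifng, 20.6% is shared on the same strand with Gm49751, so part of its count may belong to that gene.

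**Figure D2:**
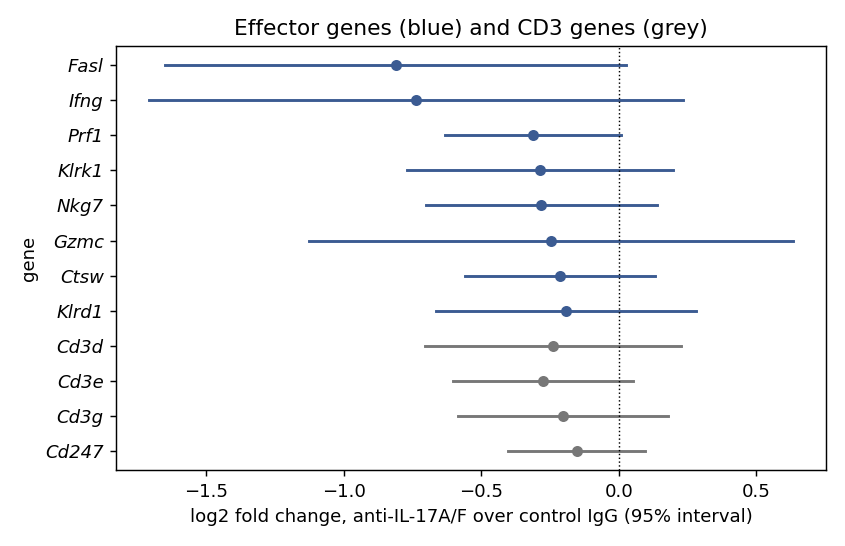
Log2 fold change of anti-IL-17A/F over control IgG with its 95% interval from edgeR (n = 4 mice per group), for the 8 tested effector genes in blue and the 4 CD3 genes in grey. All 12 points lie below 0 and all 12 intervals include 0; the widest intervals belong to Fasl, Ifng and Gzmc.

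Compared per kilobase of exon, the mean level of Nkg7 was the highest in the control mice, at 16.4 ± 4.02 CPM per kilobase (SD, n = 4). Ctsw followed at 15.5 ± 3.12. These SDs are between mice, and differences between genes measured in the same mice were not tested. Prf1 at 7.48 ± 1.28 CPM per kilobase and Gzmc at 7.34 ± 3.47 came next, and Klrd1 followed at 4.95 ± 1.10. Klrk1 was at 2.73 ± 0.794, Ifng at 1.05 ± 0.543, Fasl at 0.223 ± 0.0868 and Gzmb at 0.221 ± 0.175 CPM per kilobase. Gzma was at 0.00954 CPM per kilobase. Per kilobase, Gzmc was thus the granzyme with a level near that of Prf1, and Gzma and Gzmb lay far under both.

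The effector genes varied between the mice of a group, and all tested genes but Gzmc shared much of that pattern. The 21 correlations of log2 CPM among those 7 genes over the 8 mice had r of 0.54 to 0.96, and 0.47 to 0.97 after removal of the group means. Within them, the 10 correlations among the more abundant Prf1, Nkg7, Ctsw, Klrd1 and Klrk1 had r of 0.69 to 0.96, and 0.65 to 0.97 after removal of the group means. Gzmc had r of 0.15 to 0.64 with the 7 other tested genes, and 0.081 to 0.62 after removal of the group means. These values share libraries and depth and are given as a description of 8 mice. Of the 8 tested genes, control mice 3 and 4 were the highest mice in all but Gzmc.

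The start regions of 3 of the genes that varied together and of Gzmc are shown to compare them. They run from 250 bases before to 50 bases after the RefSeq start site (GRCm38.p6), in the direction of the gene, with matches to TGTGGT, the core that RUNX factors bind, in capitals on either strand (ACCACA on the other). RUNX3 is a factor of cytotoxic lymphocytes.
Prf1 promoter, chr10:61297586-61297885, plus strand: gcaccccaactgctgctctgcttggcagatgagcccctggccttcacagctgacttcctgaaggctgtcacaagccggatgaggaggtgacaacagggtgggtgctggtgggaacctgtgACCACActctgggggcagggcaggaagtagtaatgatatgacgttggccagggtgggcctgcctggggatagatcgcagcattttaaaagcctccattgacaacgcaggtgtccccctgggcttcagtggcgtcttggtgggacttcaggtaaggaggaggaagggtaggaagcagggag
Nkg7 promoter, chr7:43436888-43437187, plus strand: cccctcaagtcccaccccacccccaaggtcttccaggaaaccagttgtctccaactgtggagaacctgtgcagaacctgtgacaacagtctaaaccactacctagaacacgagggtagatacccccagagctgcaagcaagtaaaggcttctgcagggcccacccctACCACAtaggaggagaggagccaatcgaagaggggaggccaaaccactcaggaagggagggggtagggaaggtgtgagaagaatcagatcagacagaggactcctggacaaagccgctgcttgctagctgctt
Klrk1 promoter, chr6:129623815-129624114, minus strand: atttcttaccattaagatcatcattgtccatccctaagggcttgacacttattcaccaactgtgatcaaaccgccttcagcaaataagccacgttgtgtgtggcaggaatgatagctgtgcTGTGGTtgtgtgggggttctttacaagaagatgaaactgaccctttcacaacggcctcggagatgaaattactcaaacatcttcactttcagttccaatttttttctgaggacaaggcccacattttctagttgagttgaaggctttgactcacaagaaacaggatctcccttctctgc
Gzmc promoter, chr14:56234608-56234907, minus strand: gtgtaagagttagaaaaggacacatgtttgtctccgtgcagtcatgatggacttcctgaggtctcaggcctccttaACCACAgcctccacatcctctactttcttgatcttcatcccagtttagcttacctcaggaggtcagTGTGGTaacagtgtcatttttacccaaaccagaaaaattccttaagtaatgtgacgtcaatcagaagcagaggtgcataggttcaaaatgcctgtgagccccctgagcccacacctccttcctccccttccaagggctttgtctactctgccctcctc
The start site that RefSeq gives for Prf1, Klrk1 and Gzmc here lies inside the span of the gene. Of the 8 members with such a region in the table, 6 held the core (Prf1, Nkg7, Klrk1, Gzma, Gzmb and Gzmc), beside 16.8% of all 32851 regions of that length. Gzmb and Gzmc held it at 2 places each, and none of the matches overlapped another motif searched. The core was at -130 in Prf1, -83 in Nkg7, -129 in Klrk1, and -174 and -108 in Gzmc, counted from the start site. These are matches of letters and show neither binding nor a role, and 11 motifs were searched with results already known. Gzmc, which followed the other genes less closely over the mice, held the same core.

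Beyond the set, the genes most like the mean of the 8 tested members over the 8 mice, among genes averaging at least 1 CPM, were Itgae (r = 0.99), Hsd11b1 (0.99), Acap1 (0.96), Cd37 (0.96), Itgb7 (0.96) and 1700099I09Rik (0.96). Itgae encodes CD103, the αE integrin chain that binds E-cadherin of keratinocytes, and Itgb7 encodes its β7 partner. Itgae was at 26.9, 31.8, 43.2 and 43.5 CPM in control and at 23.5, 28.6, 31.8 and 30.04 CPM in treated mice. Its log2 fold change was -0.35 (SE 0.16), that of Itgb7 -0.30 (SE 0.16), and that of the leukocyte tetraspanin gene Cd37 -0.40 (SE 0.21), and edgeR called none of them (adjusted p = 0.984). Runx3 had r = 0.94 and Il2rb, the shared receptor chain for IL-2 and IL-15, r = 0.94, while the CD3 genes had 0.84 to 0.86, Trdc 0.77 and Cd8a 0.79. Markers of other cells varied with the set too, with r = 0.90 for the pan-leukocyte gene Ptprc and 0.77 for the Langerhans cell gene Cd207. The macrophage gene Csf1r had r = 0.68. Of the keratinocyte genes, Krt14 had r = 0.82 and Krt5 r = 0.62.

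**Figure D3:**
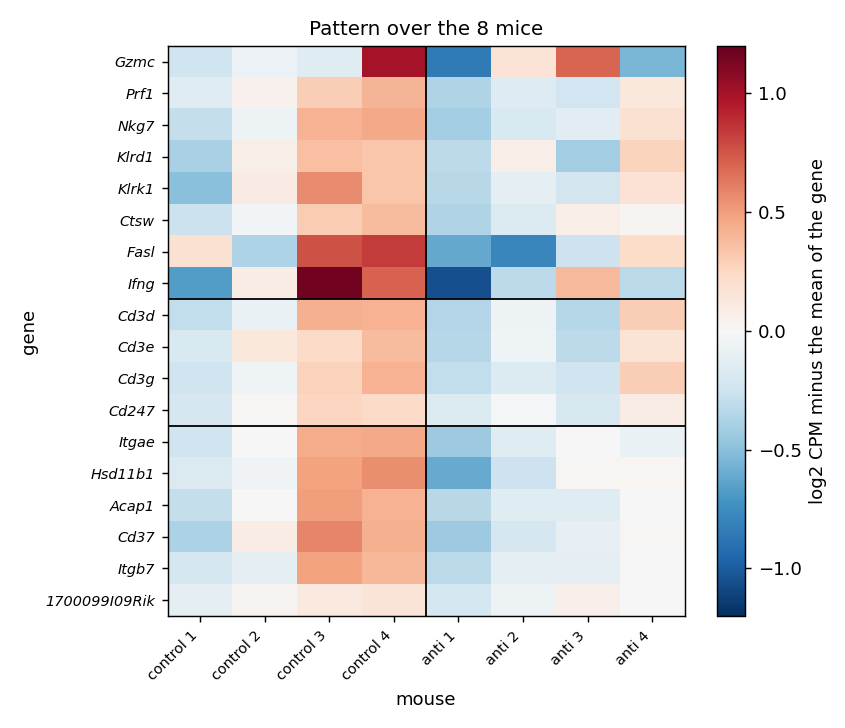
Log2 CPM of each gene minus its mean over the 8 mice, with red for higher and blue for lower, for the 8 tested effector genes (top), the 4 CD3 genes (middle) and the 6 genes most like the effector genes (bottom), in 4 control IgG and 4 anti-IL-17A/F (anti) mice. Control mice 3 and 4 are red in every row but that of Gzmc in control mouse 3, treated mouse 1 is blue in every row, and Gzmc departs from the other effector genes in control mouse 3 and, together with Ifng, from most of them in treated mice 3 and 4.

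T cell transcripts as a whole had lower means in the treated mice, so the effector genes were also set against them. All 4 CD3 genes had negative log2 fold changes (median -0.22), none of which passed the edgeR test. Per 1000 CD3 counts, Prf1 was at 198, 194, 192 and 196 in control mice 1 to 4 and at 177, 180, 191 and 179 in the treated mice. The control mice thus lay within a narrow range, all above the treated mice, and the mean was 195 ± 2.60 against 182 ± 6.12 (SD, n = 4 each), a log2 ratio of -0.10. On this scale 0.0857% of all genes tested had treated mice below control mice without overlap and 1.10% had them above, and the median log2 ratio over all genes was 0.20 because the CD3 counts themselves were lower. The separation was seen after the values were known, 1 of 10 genes showed it, treated mouse 3 came within 1.5 of the lowest control mouse, and it was not tested. Prf1 had 665 to 1170 counts per mouse, so counting error alone is larger than that gap and than the control SD.

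The other effector genes overlapped on this scale. Nkg7 was at 145 ± 11.4 per 1000 CD3 counts in control and 139 ± 11.2 in treated mice, Klrk1 at 93.1 ± 15.3 and 89.3 ± 2.39, Klrd1 at 47.9 ± 3.85 and 48.4 ± 4.88, and Ctsw at 194 ± 5.54 and 195 ± 32.8. Ctsw was high in treated mouse 3, at 244. Gzmc, at 65.0 ± 21.7 and 66.8 ± 37.8, kept its wide spread between mice. Ifng was at 12.3 ± 4.91 and 9.06 ± 4.52, and Fasl at 4.28 ± 1.196 and 2.80 ± 0.749. Relative to T cell transcripts, then, the means of Klrd1, Ctsw and Gzmc were slightly higher in the treated mice and those of the other tested genes lower.

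**Figure D4:**
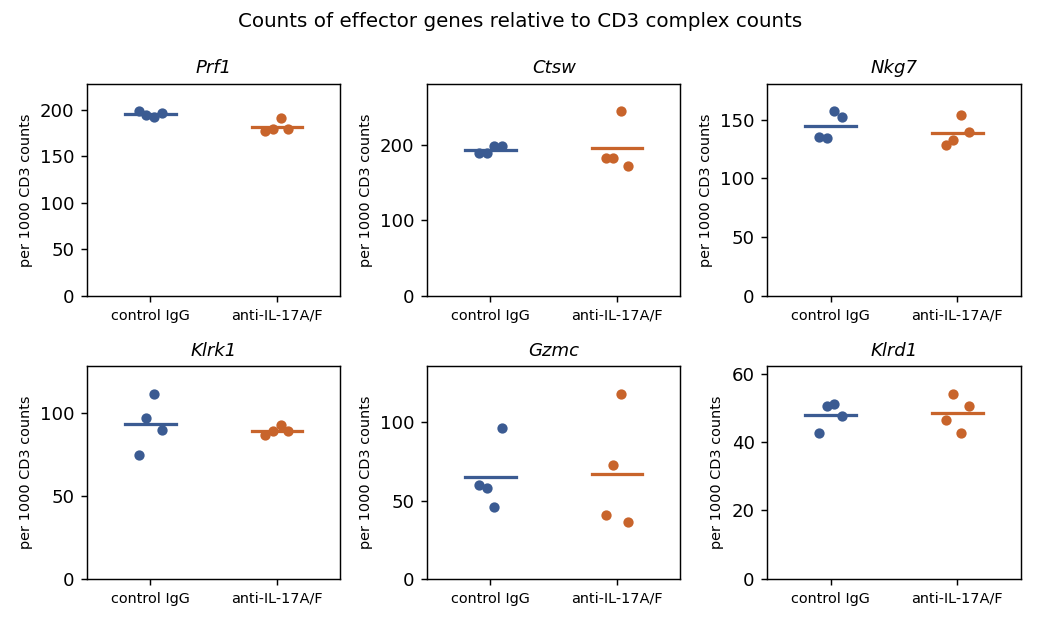
Counts of 6 effector genes per 1000 summed counts of Cd3d, Cd3e, Cd3g and Cd247, with a point for each of 4 mice per group, a line at the mean and axes from 0. The control points of Prf1 lie between 192 and 198 and the treated points between 177 and 191, while the groups overlap in Ctsw, Nkg7, Klrk1, Gzmc and Klrd1.

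Other genes of the killing pathway were described from lists drawn up by role. In the list of killer receptors and adaptors, 16 of 17 tested genes were lower and 1 higher, with a median log2 fold change of -0.43 and 0 called by edgeR. The median was -0.28 in sequencing batch 1 alone, where 13 of the 15 listed genes other than members were fitted. Over those 13 genes it was -0.43 in that batch. The smallest p belonged to the Ly49 receptor genes Klra1 (-1.17, SE 0.42) and Klra7 (-0.90, SE 0.37) and to Cd160 (-0.58, SE 0.25), an activating receptor of cytotoxic lymphocytes, and 0 of these passed, with an adjusted edgeR p of 0.984. Klra1 was at 0.376, 0.790, 1.11 and 0.684 CPM in control and 0.151, 0.279, 0.334 and 0.542 CPM in treated mice. Klra7 had 10, 16, 33 and 17 counts in control and 9, 8, 9 and 13 counts in treated mice. It thus passed the filter (minimum count 10) mainly through the control mice, where it was higher, which limits what its fold change shows. The Ly49 genes are closely related copies, so their counts are uncertain. Without the members, 14 of 15 genes of the list were lower (median -0.46), and that median was -0.26 when control mouse 3 was left out.

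The list of granule assembly and release showed smaller values. Of its 14 tested genes 12 were lower and 2 higher, with a median log2 fold change of -0.07. Ctsc, the protease that activates granzymes, had 36.3 ± 1.33 CPM in control and 33.6 ± 1.08 CPM in treated mice (-0.11, SE 0.048). Ap3b1, an adaptor subunit of lysosome-related organelles, had -0.09 (SE 0.045) and Stxbp2, of the release machinery, -0.06 (SE 0.048). Keratinocytes express many of these genes too, so they are not specific to lymphocytes.

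On the side of the target cell the list medians, with the members left out, were near 0 in the fit of all mice. Of 6 tested genes for ligands of killer receptors 3 were lower and 3 higher (median 0.00016). H60c, a ligand of NKG2D made by mouse keratinocytes, was at 58.2 ± 4.07 and 55.5 ± 4.55 CPM (-0.07, SE 0.072), and Cadm1, ligand of the receptor CRTAM, at 46.4 ± 5.05 and 54.5 ± 4.27 CPM (0.23, SE 0.088). Among 9 genes of the death pathway other than Fasl 5 were lower (median -0.0060), with Bid, which human granzyme B cleaves, at 0.19 (SE 0.10) and Fas at -0.10 (SE 0.092). Of the inhibitors of granzymes, Serpinb9 had 0.26 (SE 0.20), and 2 of 3 genes were lower. Of 13 receptor and target genes of interferon-γ 8 were lower (median -0.0096), a median that moved to -0.25 without treated mouse 2 and to 0.038 without treated mouse 4. They included Irf1 at -0.15 (SE 0.17) and the class II transactivator gene Ciita at -0.26 (SE 0.33). In each of these lists edgeR called 0 genes.

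Regulators and cytokine signals of cytotoxic lymphocytes had 0 genes called. Of 8 transcription factor genes 6 were lower and 2 higher, with a median of -0.16 that turned to 0.022 without control mouse 4 and was -0.034 without control mouse 3. Among them were Runx3 at -0.34 (SE 0.20), Tbx21, the gene of T-bet, at -0.77 (SE 0.54), and Hopx at 0.19 (SE 0.069), a gene that keratinocytes also express. Of 14 cytokine and receptor genes 13 were lower and 1 higher (median -0.17, and -0.11 without control mouse 3, -0.32 without control mouse 1). They included Il7, which keratinocytes make for T cells, at 5.80 ± 0.468 and 4.79 ± 0.469 CPM (-0.28, SE 0.11), Il15ra, which presents IL-15, at 39.0 ± 2.76 and 35.3 ± 1.79 CPM (-0.14, SE 0.063), and Il2rb at 25.0 ± 6.32 and 19.3 ± 3.48 CPM (-0.38, SE 0.20). Il15ra was the only one of the 14 tested genes of this list with no overlap between the groups. Over all genes tested, 1.00% had every treated mouse below every control mouse.

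Markers of several other leukocytes had lower medians beside those of the effector genes, with 0 called by edgeR. The 4 pan-leukocyte genes were all lower (median log2 fold change -0.39), with a summed level of 64.7 to 140 CPM in control and 74.8 to 87.4 CPM in treated mice. The CD8 and CD4 coreceptor genes were 3 of 3 lower (median -0.90, summed 2.44 to 11.6 and 1.36 to 5.74 CPM), γδ T cell genes 8 of 11 lower (median -0.16, summed 150 to 205 and 157 to 207 CPM), Langerhans cell genes 6 of 7 lower (median -0.36, summed 341 to 689 and 419 to 518 CPM) and macrophage genes 7 of 7 lower (median -0.52, summed 10.7 to 30.6 and 11.3 to 17.7 CPM). These medians rested much on single control mice. Without control mouse 3 they were -0.18 for the pan-leukocyte genes, -0.40 for the coreceptors, -0.085 for Langerhans cells and -0.23 for macrophages, and without control mouse 4 the γδ T cell median was -0.0017 and that of the CD3 genes -0.12. The mast cell list had 1 gene tested, Kit, at 0.12, and at -0.074 without treated mouse 4. Its other genes lay below the filter and were not tested. In control and treated mice they had 30 and 16 counts (Cpa3), 50 and 24 (Mcpt4) and 11 and 5 (Tpsb2). Cma1 had 13 and 6 counts, and Fcer1a, the one that was not lower, 1 and 2. Of 2 neutrophil genes 1 was lower (S100a9, -0.37) and 1 higher (S100a8, 0.057). Keratinocyte genes were 5 lower and 3 higher of 8 (median -0.021), while 4 of 4 endothelial genes (median 0.43) and 4 of 4 melanocyte genes (median 0.29) were higher. Without treated mouse 4 the endothelial median was 0.21 and the melanocyte median -0.25, and the latter was -0.050 in limma-voom. The NK cell list had 2 of 6 genes above the filter, 1 lower and 1 higher. The part of these cell types in the values of the effector genes was not tested.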

How the data were processed

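Per the labels and the methods of the study, the authors prepared stranded poly(A) libraries from epidermal cells, aligned reads to mm10 with STAR 2.5.2b and obtained raw counts per Entrez gene with featureCounts, which are the deposited values. Reads overlapping several genes were counted for each, and multi-mapping reads were not counted. Whether featureCounts used strand is not stated in these sources. No effector gene had exons overlapped on the opposite strand. The 16 columns were summed to 8 mice, since the runs of a mouse differed by a chi-square per gene of 0.996 to 1.06. Symbols (25275 of 27179 identifiers), coordinates and promoters came from RefSeq GRCm38.p6, and exon lengths and transcripts from GENCODE.

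Counts were compared with edgeR 4.0.16 (R 4.3.3): TMM, filterByExpr (minimum count 10, minimum total 15), quasi-likelihood test, Benjamini-Hochberg over 16335 genes of 21658 with any count, called below 0.1. Correlations used log2 CPM with a prior count of 2. DESeq2 1.42.0, limma-voom (limma 3.58.1), DESeq2 size factors, no filter, each batch alone, runs kept apart, a replicate block and leaving out each mouse were alternatives. The study's experimental batch covariate could not be assigned to mice from these sources and was not used here. Tests are two-sided. Only the edgeR quasi-likelihood test was run on simulated data, and its outcome there is not reported here. The members and lists were chosen with earlier results of these data known. Named genes are all members, up to 3 further genes per list with the smallest unadjusted p (2 or fewer printed for some lists), marker genes that check the label, and the 6 genes of at least 1 CPM most correlated with the members. The promoters printed and genes named only for context were picked after their values were seen. Counting intervals (95%) allow for counting error only, the reads having no molecular identifiers.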

Additional observations from a re-analysis of the deposited data

Results flagged for a closer look

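Gzmc stood out in control mouse 4, at 11.2 CPM against 4.71 to 5.32 CPM in the other 3 control mice. The gap to the nearest mouse was 0.907 of the range of the group, above Dixon's 95% critical value for 4 samples. It was present in both sequencing runs of that mouse, at 11.3 and 11.1 CPM, while the other control runs gave 4.36 to 5.26 CPM. In the same mouse Prf1, Nkg7 and Ctsw were 1.08, 1.02 and 1.05 times their level in control mouse 3. Of 16 groups checked (8 genes in 2 treatments) this was the only value so far apart, where chance flags about 1 in 20 groups.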

How the results depend on the processing

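Under the 16 alternatives, 124 of 125 log2 fold changes of the effector genes were lower under anti-IL-17A/F. These fits reuse the same 8 mice, and most of the genes varied together, so the values are not independent results. The exception was Gzmc without control mouse 4, at 0.14, in a range of -0.59 to 0.14 over the mice left out in turn. The median over the members was -0.42 to -0.22, and 0 members were called in any fit. Their smallest adjusted p was 0.196, for Prf1 in the edgeR fit that kept the runs apart and so counts each mouse as 2 samples. That fit called 142 genes in all and DESeq2 called 11, against 0 in edgeR and 0 in limma-voom.

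Over all genes tested, deviations of same-numbered mice had correlations of -0.27, 0.25, 0.19 and -0.14. Those of differently numbered mice were -0.31 to 0.30. The mean centred log2 CPM of the 8 tested effector genes rose with replicate number in both groups. It was -0.29, -0.027, 0.46 and 0.56 in control mice 1 to 4. In treated mice 1 to 4 it was -0.54, -0.18, -0.0097 and 0.019. Whether replicate numbers pair the mice in these genes was not tested. With the replicate block edgeR still called 0 of 8 members and 0 genes in all, with a median of -0.26 over the members. At an unadjusted edgeR p below 0.05, 5 of 8 members were lower beside 1.67% of all genes, against 0 of 8 without the block. Most members varied together over the same mice, so the 5 are not independent counts, and the numbering was not shown to pair the mice.

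With 4 mice per group the 95% interval of Prf1 reached from -0.63 to 0.0068, so that a difference of that size was not told apart from 0. Depth limits Gzmb, Gzma and Fasl, which rest on 101, 3 and 138 counts over all mice.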

Other observations

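Among the other letter patterns searched in the start regions of the 8 members that have one in the table, TCACACC or AGGTGT, bound by T-box factors, occurred in 4 (Nkg7, Prf1, Gzma and Gzmc), beside 16.1% of all 32851 regions. TGACTCA or TGAGTCA, bound by AP-1, occurred in 2 (Klrk1 and Gzmb) beside 5.20%, and TTCNNNGAA, the STAT pattern, in 3 (Nkg7, Ifng and Gzmb) beside 8.30%. GGGANTTTC, a κB pattern, occurred in 0 of 8 beside 1.11%, TGGAAA, of NFAT, in 1 (Gzma) beside 21.4%, and TATAAA in 1 (Ifng) beside 13.6%. CCGGAAG or AGGAAGT, bound by ETS factors, occurred in 3 beside 17.3%, CAGGTG, the E-box, in 3 beside 20.2%, TGACGTCA or TGACGCAA, the CRE, in 1 beside 2.26%, and GAAANNGAA, the ISRE pattern, in 2 beside 8.56%. Both strands were searched, the T-box matches of Prf1 and Gzma overlap their E-box matches, and the patterns were chosen with results of these data known, so the counts are descriptions.

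In the γδ T cell list, genes of γδ cells did not all lie on the same side. Sox13, a factor of IL-17-producing γδ T cells that other epidermal cells may express, was at 26.2 ± 11.8 and 40.1 ± 13.0 CPM in control and treated mice (log2 fold change 0.62, SE 0.31), and Blk, a kinase gene of the same cells, had 0.83 (SE 0.49). Trdc had -0.23 (SE 0.18). None passed the edgeR test, with an adjusted p of 0.984 for Trdc.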
